A study of Arabidopsis thaliana with 17 samples.

Results

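The WRKY transcription factor genes described here are 53 loci of Arabidopsis thaliana, given by their locus identifiers, out of 27444 protein-coding genes on the 5 nuclear chromosomes. A peak was assigned to a gene when its centre lay between 2000 bp upstream of the transcription start site (TSS) and 500 bp past the 3′ end. At least 1 of the 11 peak lists of root and seed coat held a peak at 52 of the 53 genes, against 86.9% of all genes. No list held a peak at WRKY10 (AT1G55600, also known as MINI3, a regulator of endosperm growth and seed size), and it enters no test.

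WRKY proteins are plant transcription factors named for the WRKY peptide in their DNA-binding domain. They bind the W-box, a short element with the core TTGAC, and many WRKY genes carry W-boxes in their own promoters and are controlled by other family members. Group I proteins carry a pair of WRKY domains, whereas group II (split into IIa to IIe) and group III proteins carry a single domain and differ in their zinc finger. The family is best known for its part in immunity, downstream of receptor kinases and MAP kinase cascades, and individual members act in senescence, phosphate nutrition, abiotic stress, pollen and seed development.

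The series mapped open chromatin by DNase I sequencing, which reads out DNA that is accessible to the nuclease, in the Col-0 background. All plants carried INTACT transgenes, with the nuclear tagging fusion NTF under a chosen promoter and the biotin ligase birA under the ACT2 promoter, so that tagged nuclei could be pulled out with biotin. UBQ10:NTF::ACT2:birA served for whole root of 7 day seedlings (2 lists) and for open and unopened flowers (1 list each). GL2:NTF::ACT2:birA served for non-hair cells of the root epidermis (4 lists, replicate 2 from 7 day and the others from 10 day seedlings) and for seed coat cells at 4 days past anthesis (DPA, 2 lists) and 7 DPA (1 list). ADF8:NTF::ACT2:birA served for root hair cells of 7 day seedlings (2 lists). The second list of hair, the second of 4 DPA and the list of 7 DPA each pool reads of 2 libraries. Roots grew on plates, whereas seed coats (from whole siliques) and flowers came from plants in soil, so organ, age and growth medium cannot be told apart. Nothing in the labels says how many plants went into a library.

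Each of the 11 lists held between 24751 peaks (hair replicate 1) and 30110 peaks (seed coat 4 DPA replicate 1) on the nuclear chromosomes, and the flower lists held 11748 (open) and 13098 (unopened). The unit used below is the percentile of a gene's highest-scoring peak among all peaks of the same list, where 100 is the top and 0 means that the list had no peak at the gene. It ranks peaks within a list and is neither transcript level nor binding. Markers of the seed coat had a peak in every seed coat list for 7 of 7 genes, and TT1, TT2, TT8, TT16 and STK had none in any root list. MYB61 and SBT1.7 had peaks in all 8 root lists, with root means of 22.5 and 80.7 and seed coat means of 97.8 and 96.5. SBT1.7 was not called (exact adjusted p = 0.109). The 6 root hair markers had peaks in the non-hair lists as well as in the hair lists, with mean percentiles of 42.8 to 59.9 and 52.4 to 55.8. Of the 3 non-hair markers, GL2, whose promoter drives the tag in non-hair cells, had means of 99.9 in non-hair and 71.2 in hair. The other markers did not set non-hair apart: WER had means of 7.19 and 8.08, and MYB23 had peaks only in non-hair replicate 1 and whole root replicate 2. The 3 inner root markers did not set root apart from seed coat. CASP1 had means of 20.0 in root and 74.1 in seed coat (exact adjusted p = 0.0219), and SCR 75.5 and 85.4 (exact adjusted p = 0.0873). SHR had peaks in both whole root lists (43.4 and 47.5), in no hair or non-hair list, and at 0.771 at 7 DPA. All 3 silique wall and all 4 flower markers had a peak in every seed coat list, with mean percentiles of 75.5 to 85.9 and 83.8 to 88.1. Of the 3 embryo markers, LEC2 was at 51.0, 57.9 and 39.7 in seed coat and at 0 in all root lists, LEC1 had a peak in all 3 seed coat lists and 7 of the 8 root lists, and FUS3 was at 25.5 at 7 DPA and at 0 elsewhere, with mean percentiles of the 3 markers of 27.6 to 42.2 in seed coat and 0 to 14.9 in root. Of the 3 endosperm markers, AGL62 and PHE1 had no peak in any of the 13 lists, and FIS2 was at 24.3, 26.2 and 0 in seed coat and had peaks in 7 of the 8 root lists. The part of these other tissues in the seed coat results was not tested. In captured nuclei, fewer nuclei with an open site and less opening per nucleus cannot be told apart.

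The 7 sequences below are printed as examples of sites that differ between root and seed coat and of how W-boxes sit in them. Each is read 5′ to 3′ on the strand of its gene from the RefSeq sequence of TAIR10.1, whose nuclear chromosomes have the lengths of the TAIR10 build named in the labels, and capitals mark W-boxes (TTGACC or TTGACT, or the reverse complement). Peaks at the first 6 were present in all 8 root lists and absent from all 3 seed coat lists. The site of WRKY30 (chr5:8154741-8154950, minus strand, centre 135 bp upstream of the TSS) holds 3 W-boxes. Those of WRKY41 (chr4:6758801-6759050, plus strand, 173 bp upstream) and WRKY51 (chr5:25907341-25907530, plus strand, 812 bp upstream) hold 2 each. At least 2 W-boxes are held by 4 of all 29 such WRKY sites (13.8%), so the printed ones over-represent them. The site of WRKY29 (chr4:12291081-12291230, plus strand, 477 bp upstream) has the highest mean root percentile of all 29 such sites and holds no W-box. The site of WRKY53 (chr4:12395181-12395410, minus strand, 1313 bp upstream) holds none either, and a site of WRKY54 (chr2:17003801-17004030, minus strand, 1387 bp upstream) holds 1. The last sequence, past the 3′ end of WRKY54 (chr2:17000181-17000330, minus strand), is the opposite case, with a peak in all 3 seed coat lists and in no root list.
WRKY30: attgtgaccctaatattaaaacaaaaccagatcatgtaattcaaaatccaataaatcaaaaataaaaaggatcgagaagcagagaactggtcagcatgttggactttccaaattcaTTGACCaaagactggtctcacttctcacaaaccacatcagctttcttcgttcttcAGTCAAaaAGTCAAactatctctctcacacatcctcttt
WRKY41: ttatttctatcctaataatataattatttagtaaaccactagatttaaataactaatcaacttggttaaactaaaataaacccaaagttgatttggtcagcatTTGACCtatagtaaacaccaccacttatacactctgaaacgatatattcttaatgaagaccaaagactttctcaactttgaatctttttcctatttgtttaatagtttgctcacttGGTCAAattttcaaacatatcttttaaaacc
WRKY51: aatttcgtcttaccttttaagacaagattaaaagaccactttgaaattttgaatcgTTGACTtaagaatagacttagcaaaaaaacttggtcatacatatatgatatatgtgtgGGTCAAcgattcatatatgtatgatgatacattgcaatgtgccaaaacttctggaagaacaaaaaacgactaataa
WRKY29: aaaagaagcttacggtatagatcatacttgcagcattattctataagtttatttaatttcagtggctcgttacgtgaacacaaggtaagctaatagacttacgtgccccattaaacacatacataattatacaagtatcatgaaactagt
WRKY53: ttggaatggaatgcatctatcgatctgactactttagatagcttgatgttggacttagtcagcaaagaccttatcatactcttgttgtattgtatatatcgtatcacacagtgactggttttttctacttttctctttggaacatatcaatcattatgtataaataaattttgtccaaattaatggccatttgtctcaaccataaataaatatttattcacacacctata
WRKY54 root site: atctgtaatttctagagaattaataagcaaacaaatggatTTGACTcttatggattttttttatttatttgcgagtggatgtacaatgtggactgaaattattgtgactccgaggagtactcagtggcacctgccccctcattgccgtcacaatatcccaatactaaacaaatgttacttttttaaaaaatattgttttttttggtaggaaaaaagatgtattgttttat
WRKY54 seed coat site: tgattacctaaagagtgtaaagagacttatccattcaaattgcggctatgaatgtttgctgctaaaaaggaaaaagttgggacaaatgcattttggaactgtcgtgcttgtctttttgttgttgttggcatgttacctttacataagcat

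The strongest peak at WRKY genes ranked high in root. The median over the 52 genes of the mean root percentile was 85.2, against 43.4 over all 23848 genes with a peak, and 46 of the 53 had a peak in all 8 root lists, against 56.4% of all genes. In seed coat the median was 58.3, against 52.2 over all genes, and 42 of the 53 had a peak in all 3 lists, against 68.4%. The median WRKY gene had 4 distinct sites and the median gene 2, in windows of similar median length (4746 and 4578 bp).

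Compared with root, 21 of 52 WRKY genes (40.4%) had a lower percentile in seed coat and 1 (1.92%) a higher one, by a two-sided exact permutation test over all divisions of the 11 lists, with Benjamini-Hochberg adjustment over 23848 genes. Over all genes, 13.2% were lower and 19.3% higher, so lower calls outnumbered higher ones at WRKY genes and the reverse held over all genes. The median difference was -9.37 percentile points for the WRKY genes and 6.002 for all genes, which is the general shift to read these values against. The 3 seed coat values lay below all 8 root values at 19 WRKY genes (36.5%, against 12.4% of all genes) and above them at 2 (3.85%, against 18.7%). The shares are also given by band of mean percentile over the 11 lists, which include the seed coat values. A gene at 0 in all seed coat lists therefore cannot reach the top band, however high in root (WRKY29 had a mean of 69.0). A relation of lower calls with rank cannot be read from these bands. Among genes with a mean percentile of 50 to 80 over the 11 lists, 14 of 23 WRKY genes (60.9%) and 22.5% of all genes were lower, and from 80 to 100, 6 of 20 (30.0%) and 19.1%. Below 50, 1 of 9 WRKY genes and 6.25% of all genes were lower.

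The smallest p that the exact test allows is 0.00606, which gave an adjusted p of 0.0219, and 19 of the 21 lower genes and WRKY32 stood at that limit. The other two, WRKY26 and WRKY45, had an adjusted p of 0.0373 by the same exact test. A lower gene at the limit necessarily has all its seed coat values below its root values. Lack of overlap at those 19 genes is therefore the same result and not separate support. Without any 1 of the 3 seed coat lists the smallest adjusted p rose to between 0.0637 and 0.0720, so that no call could be made, whereas limma on the same values made 21 to 24 lower calls with any 1 of the 11 lists left out. The differences below are given in percentile points.

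**Figure D1:**
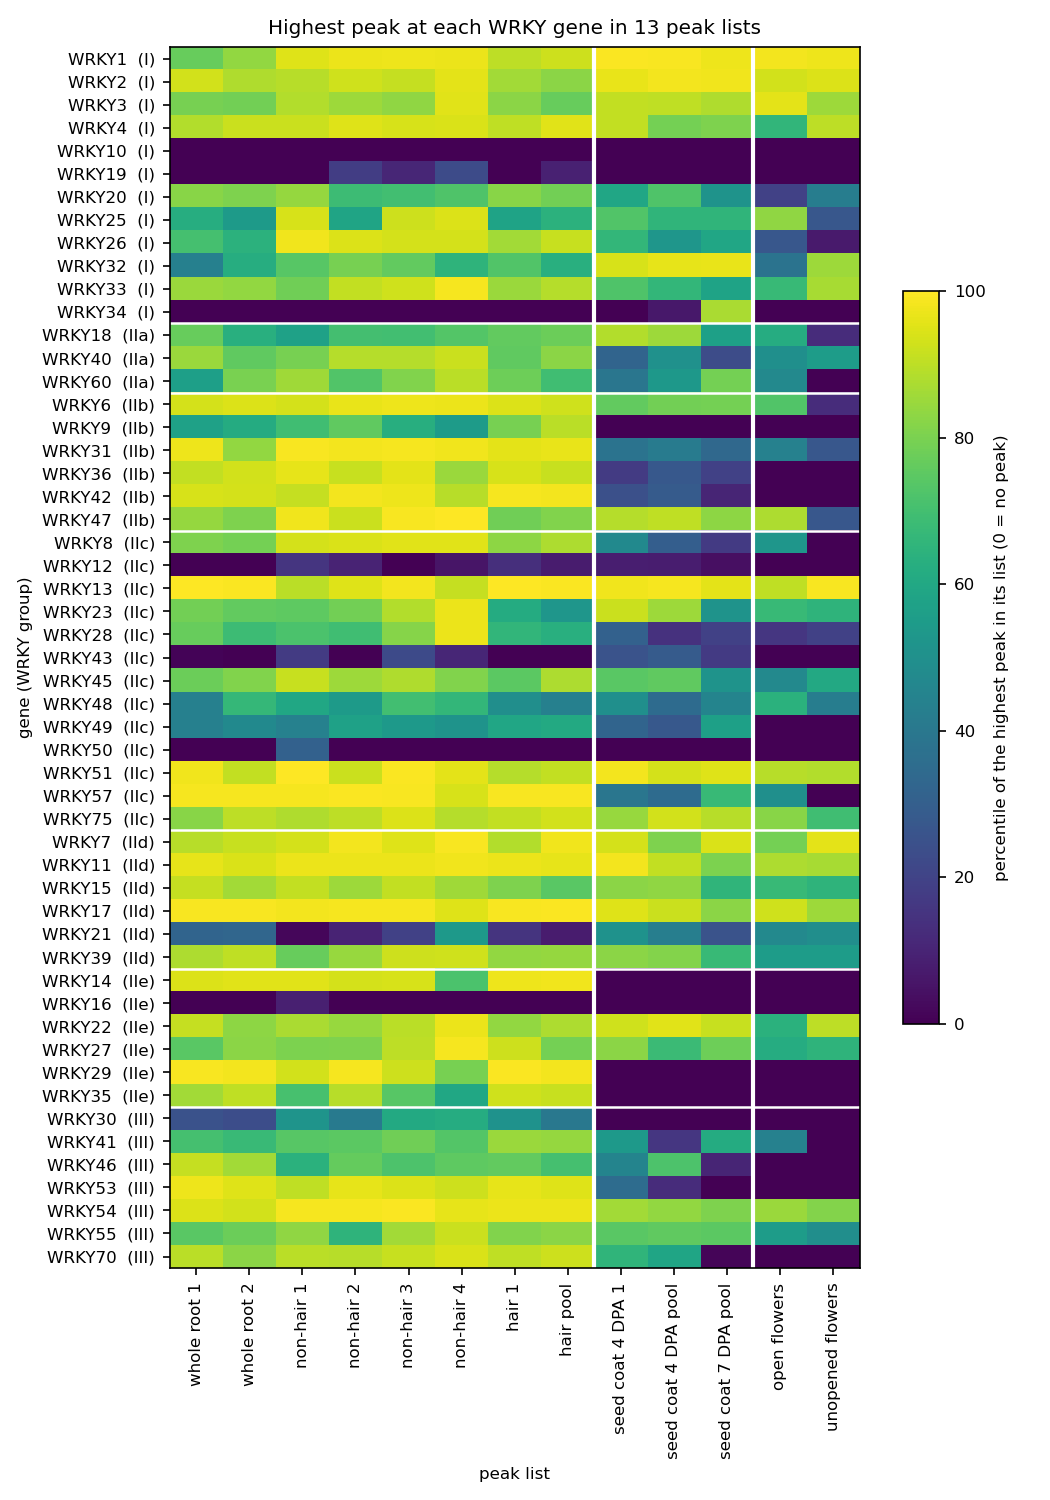
Percentile of the highest peak (colour, 0 to 100, dark where the list has no peak) at 53 WRKY genes (rows, by WRKY group) in 8 root lists, 3 seed coat lists and 2 flower lists (columns, divided by white lines). WRKY9, WRKY14, WRKY29, WRKY30 and WRKY35 have peaks in all 8 root lists and in none of the seed coat or flower lists.

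Group IIe held the genes with the most negative differences, WRKY29 and WRKY14. Of its 6 genes, 3 (WRKY14, WRKY29 and WRKY35) had peaks in all 8 root lists and in no seed coat list, a pattern of 5 of the 53 WRKY genes (9.43%) and of 2.77% of all genes. WRKY29 (AT4G23550, a target of the MAP kinase cascade below the flagellin receptor FLS2) ranked at a lowest, median and highest root percentile of 79.6, 98.2 and 99.3, a mean of 94.8 ± 6.69 (SD, n = 8), and at 0 in the 3 seed coat lists. WRKY14 (AT1G30650) ranked at 71.7, 95.0 and 97.7 in root, a mean of 92.5 ± 8.56 (SD, n = 8), and at 0 in seed coat. WRKY35 (AT2G34830) ranked at 59.8, 87.6 and 92.9 in root, a mean of 81.9 ± 12.1 (SD, n = 8), and at 0 in seed coat. In each of these genes, non-hair replicate 4 was the lowest root list and the groups did not overlap. WRKY22 (AT4G01250), which acts beside WRKY29 in flagellin signalling, showed no such contrast, with 83.1, 87.7 and 97.0 in root and 92.7, 95.4 and 91.4 in seed coat (difference 5.05, exact adjusted p = 0.202). WRKY27 (AT5G52830, which affects bacterial wilt symptoms) had 74.2, 81.7 and 98.8 in root and 82.5, 68.3 and 77.8 in seed coat (difference -8.55, exact adjusted p = 0.251). WRKY16 (AT5G45050), whose protein joins a WRKY domain to an immune receptor, had a single peak in non-hair replicate 1, at 8.77.

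In group IIb, 5 of 6 genes were lower in seed coat, and the group median difference was -63.4. WRKY42 (AT4G04450, a regulator of phosphate transporter genes) ranked at 89.3, 95.7 and 98.6 in root (lowest, median and highest) and at 24.3, 28.6 and 10.3 in the 2 lists of 4 DPA and the list of 7 DPA, a difference of -74.0. WRKY36 (AT1G69810, known as a repressor of the light regulator HY5) ranked at 85.1, 92.5 and 96.2 in root and at 17.5, 27.4 and 19.2 in seed coat, a difference of -71.0. WRKY31 (AT4G22070) ranked at 83.9, 97.6 and 98.9 in root and at 38.1, 41.7 and 33.9 in seed coat, a difference of -58.0. WRKY42, WRKY36 and WRKY31 each had some peak in every seed coat list, although single sites of WRKY36 and WRKY42 had root peaks only, as described with the sites. WRKY9 (AT1G68150) was at 54.9, 66.0 and 89.6 in root and at 0 in all 3 seed coat lists, a difference of -68.8. WRKY6 (AT1G62300, which acts in senescence and represses the phosphate exporter gene PHO1) was at 92.8, 94.7 and 97.6 in root and at 76.0, 78.7 and 79.1 in seed coat, a narrow but complete separation of -17.1. WRKY47 (AT4G01720), the one IIb gene without a call, was at 78.4, 88.1 and 99.7 in root and at 88.8, 90.3 and 83.2 in seed coat (difference -1.67, exact adjusted p = 0.862). With only the best peaks kept, 0.5 times as many per list as the shortest list holds, the difference at WRKY9 was -33.1 with an exact adjusted p of 0.165.

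In group III, 5 of 7 genes were lower in seed coat, and the median difference was -34.0. WRKY53 (AT4G23810, an activator of leaf senescence) ranked at 90.4, 95.2 and 97.3 in root and at 35.2 and 12.8 in the lists of 4 DPA, with no peak at 7 DPA (difference -78.7). WRKY70 (AT3G56400, a node between salicylate and jasmonate defence) ranked at 82.6, 90.0 and 94.4 in root, at 65.3 and 58.7 at 4 DPA and at 1.54 at 7 DPA. Its difference of -48.1 was -27.9 without the 7 DPA list, and its 4 DPA peaks lay at another site (1742 bp upstream) with no root peak. WRKY30 (AT5G24110, induced early by oxidative stress) was at 23.6, 46.0 and 61.9 in root and at 0 in seed coat (difference -44.4), and with that stricter number of peaks the difference was -3.40 with an exact adjusted p of 0.600. WRKY41 (AT4G11070, which promotes the seed dormancy regulator ABI3) was at 68.0, 74.3 and 85.1 in root and at 54.2, 15.7 and 61.4 in seed coat, and its difference of -32.3 was -18.2 without the 4 DPA pool. WRKY54 (AT2G40750, a partner of WRKY70) stayed high on both sides, at 93.4, 97.0 and 99.2 in root and at 86.3, 83.7 and 80.8 in seed coat (difference -13.2). In all 5 genes every seed coat value was below every root value. WRKY46 (AT2G46400, which acts with WRKY54 and WRKY70 in brassinosteroid growth) overlapped, at 63.9, 75.6 and 91.1 in root and at 44.9, 71.9 and 10.3 in seed coat (difference -34.0, exact adjusted p = 0.0508). WRKY55 (AT2G40740) differed by -5.36 (exact adjusted p = 0.438).

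**Figure D2:**
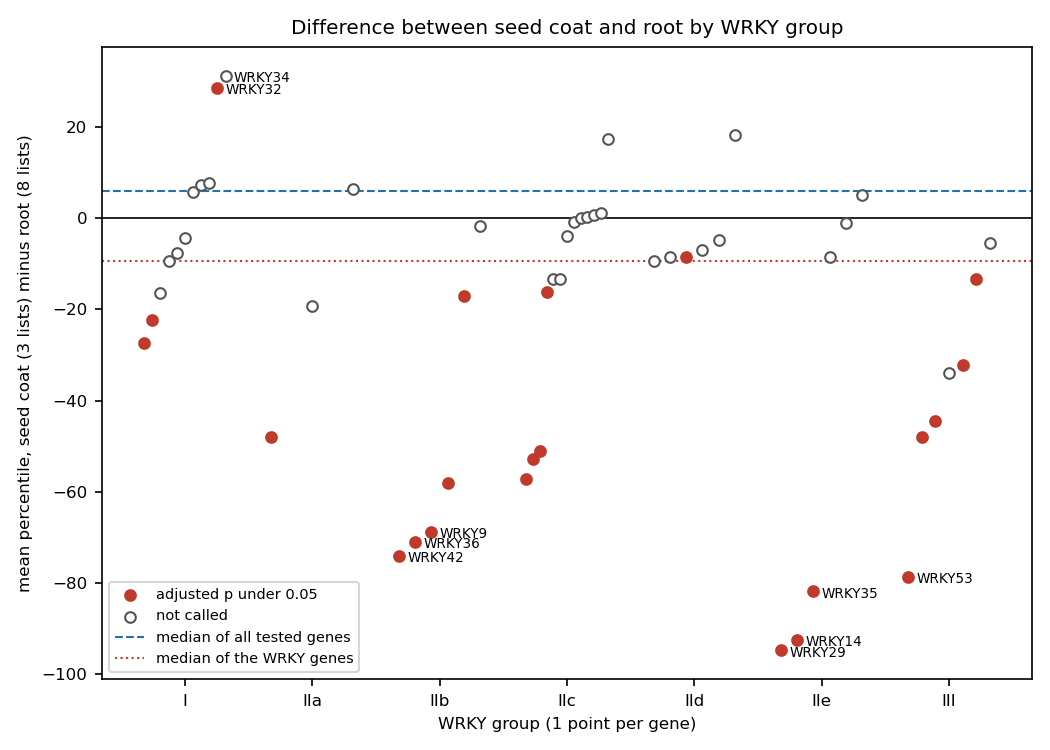
Mean percentile of the highest peak in 3 seed coat lists minus that in 8 root lists, 1 point per WRKY gene by group, for the 52 genes with a peak. Filled points have an exact adjusted p under 0.05, the dashed line is the median of all genes (6.002) and the dotted line that of the WRKY genes (-9.37). The lowest points are WRKY29 (-94.8) and WRKY14 (-92.5), and WRKY32 (28.6) is the filled point above 0.

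In group IIc, 4 of 13 genes were lower and none higher, and the median difference was -3.89. WRKY8 (AT5G46350, which acts in salt and virus responses) ranked at 79.2, 90.6 and 95.6 in root and at 47.4, 29.9 and 16.9 in seed coat, a difference of -57.3. WRKY28 (AT4G18170, an activator of the salicylate gene ICS1) ranked at 62.9, 70.4 and 97.1 in root and at 31.0, 14.3 and 19.2 in seed coat, a difference of -52.8. WRKY57 (AT1G69310, which acts in drought tolerance and in jasmonate-induced senescence) ranked at 93.9, 98.8 and 99.5 in root and at 39.4, 35.1 and 67.3 in seed coat, a difference of -51.0. The groups did not overlap at these 3 genes. The highest peak of WRKY57 at 7 DPA belonged to a site past the 3′ end, 4488 bp from the TSS, that no root list had. WRKY45 (AT3G01970, an activator of the phosphate transporter gene PHT1;1) overlapped at single lists, with 74.9, 83.1 and 91.6 in root and 74.3, 75.7 and 51.4 in seed coat, and its difference of -16.2 was -8.35 without the 7 DPA list. The exact call of WRKY45 was also lost with the seed coat lists of the 6.65M mark (exact adjusted p = 0.0501) and on leaving out the hair pool, non-hair replicate 2 or whole root replicate 1. With the window shortened to 1000 bp upstream and the 3′ end, WRKY28 differed by -43.0 with an exact adjusted p of 0.0793. WRKY75 (AT5G13080, a phosphate starvation and root hair regulator), WRKY13 (AT4G39410) and WRKY51 (AT5G64810) differed by -0.806, 0.835 and 1.26, with seed coat and root means of 89.0 and 89.8, 97.4 and 96.6, and 95.6 and 94.4. WRKY50 (AT5G26170) had a single peak in non-hair replicate 1, at 31.1.

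Group I, the class with a pair of WRKY domains, held 2 lower genes and the single higher gene. WRKY33 (AT2G38470, the activator of camalexin synthesis in fungal defence) ranked at 78.5, 86.9 and 98.5 in root and at 72.3, 66.3 and 58.0 in seed coat, a difference of -22.3. WRKY26 (AT5G07100), which acts with WRKY25 and WRKY33 in heat tolerance, was at 64.1, 92.5 and 97.7 in root and at 66.2, 52.5 and 59.2 in seed coat, a difference of -27.3. Only whole root replicate 2 reached down into the seed coat range at WRKY26. Its exact call was lost on leaving out either hair list, non-hair replicate 2 or whole root replicate 1. WRKY32 (AT4G30935) was higher in seed coat, at 93.8, 96.2 and 96.8, than in root, at 43.4, 68.9 and 79.4 (difference 28.6), with no overlap. Its highest seed coat peaks lay 508 bp upstream, nearer to the TSS of a neighbouring gene, and with each peak given only to the gene of the nearest TSS the difference was 31.1 with an exact adjusted p of 0.0918. WRKY34 (AT4G26440, a pollen WRKY gene) had peaks at a single site, 884 bp upstream, with a percentile of 87.4 at 7 DPA and of 6.45 in the pool of 4 DPA, and 0 elsewhere. WRKY2 (AT5G56270, which acts in pollen and in the polarity of the zygote) was at 82.7, 90.1 and 95.7 in root and at 96.5, 98.4 and 97.8 in seed coat (difference 7.72, exact adjusted p = 0.0508). WRKY1 (AT2G04880) was at 76.7, 93.8 and 97.6 in root and at 99.4, 98.9 and 97.3 in seed coat (difference 7.27, exact adjusted p = 0.151).

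Groups IIa and IId each held 1 lower gene. In IIa, the class of the 3 related repressors of defence and abscisic acid responses, WRKY40 (AT1G80840) ranked at 75.6, 83.8 and 91.9 in root and at 32.4, 50.4 and 23.4 in seed coat, a difference of -48.1 with no overlap. WRKY18 (AT4G31800) differed by 6.35 (exact adjusted p = 0.500) and WRKY60 (AT2G25000) by -19.3 (exact adjusted p = 0.0982), and both overlapped between the groups. In IId, the calmodulin-binding class, WRKY17 (AT2G24570, a negative regulator of resistance to bacteria) was at 95.1, 98.8 and 99.5 in root and at 95.1, 92.0 and 82.7 in seed coat. The mean difference at WRKY17 was -8.41, and -4.81 without the 7 DPA list. By limma its adjusted p was 0.0369, and that call was lost with 8 of the 11 lists left out in turn, both hair and both whole root lists among them (limma adjusted p up to 0.134). Its partner WRKY11 (AT4G31550) was at 94.4, 97.0 and 97.9 in root and at 98.2, 90.8 and 80.2 in seed coat (difference -6.97, exact adjusted p = 0.113). WRKY13, WRKY17, WRKY11 and WRKY51 had the highest means over the 11 lists among the 40 WRKY genes with a peak in all of them, at 96.8, 96.1, 94.8 and 94.7. WRKY21 (AT2G30590), WRKY49 (AT5G43290), WRKY48 (AT5G49520) and WRKY28 had the lowest, at 26.5, 48.5, 52.96 and 59.9. WRKY21 ranked at 1.87, 17.1 and 53.7 in root and at 51.0, 42.9 and 25.5 in seed coat, WRKY49 at 43.4, 52.5 and 60.8 and at 32.4, 27.4 and 56.7, and WRKY48 at 43.4, 57.0 and 69.7 and at 49.8, 35.1 and 45.1. The groups overlapped at these 3 genes and none was called. Of the remaining genes, WRKY43 (AT2G46130, which acts in seed fatty acid and abscisic acid responses) had 0, 0.431 and 22.3 in root and 25.6, 28.6 and 16.9 in seed coat (difference 17.3, exact adjusted p = 0.0508). WRKY19 (AT4G12020) had peaks in root lists only, up to 22.7. WRKY3, WRKY7, WRKY12, WRKY23 and WRKY39 (AT3G04670) differed by 5.86, -4.77, 0.361, 0.0968 and -9.47, and WRKY4 and WRKY15 by -9.26 and -8.57, none of them called against root. WRKY20 differed by -16.3 and WRKY25 by -4.29, also without a call.

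Seed coat and non-hair cells were captured through the same GL2 promoter, so their comparison holds the promoter constant while organ and age still differ. By limma, 27 of 52 WRKY genes (51.9%) were lower in seed coat than in non-hair cells, against 17.1% of all genes, and 2 were higher, against 22.8%. The 21 genes lower than root were all among the 27, and the other 6 were WRKY4, WRKY11, WRKY15, WRKY20, WRKY46 and WRKY47. Both comparisons use the same seed coat lists, and the non-hair lists are part of the root lists. The overlap of the calls is therefore not separate support. WRKY46 differed most of these (-37.4, SE 6.61, limma adjusted p = 0.00306, but -13.4 with 0.194 without the 7 DPA list), and the others by -10.0 (WRKY11, SE 2.25) to -15.2 (WRKY20, SE 4.92). WRKY4 had 92.1, 95.0, 94.1 and 94.4 in non-hair and 90.6, 79.1 and 80.8 in seed coat. WRKY20 (AT4G26640) had 84.3, 68.6, 69.7 and 72.5 in non-hair and 59.0, 72.5 and 51.4 in seed coat, and with the window of 1000 bp upstream to the 3′ end its difference changed sign to 37.8 (limma adjusted p = 0.0540). The difference at WRKY11 changed sign to 0.792 without the pooled lists, which leaves a single seed coat list. WRKY15 (AT2G23320, which acts in oxidative and osmotic stress) had 91.0, 85.3, 90.9 and 85.6 in non-hair and 82.5, 83.3 and 65.4 in seed coat. WRKY4 and WRKY15 did not overlap between these cell types, whereas WRKY20 did. The largest limma differences were -91.0 at WRKY29 (SE 4.37), -88.7 at WRKY14 (SE 5.97) and -81.4 at WRKY53 (SE 5.09). WRKY47 (97.1 ± 3.46, SD, n = 4 in non-hair) was called here and not against all of root, and its hair and whole root values are given below. Leaving out the 7 DPA list ended the calls of WRKY4, WRKY11, WRKY15, WRKY17, WRKY20, WRKY45, WRKY46 and WRKY47. Of these, WRKY4 was also lost without non-hair replicate 2 or 3. The calls of WRKY20 and WRKY41 were the least stable, lost with 9 and 8 of the 11 lists left out in turn. The 2 higher genes were WRKY32 (22.4, SE 5.63, limma adjusted p = 0.0160, or 0.0511 without the 4 DPA pool) and WRKY34 (45.3, SE 2.08, limma adjusted p = 2.4e-06). WRKY34 rests on the single 7 DPA list, which is assumed to vary like the other groups, and without it the difference was 3.22 with a limma adjusted p of 0.409.

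Single sites come from the same peaks as the gene values, so they show the contrast at finer resolution and are not separate support. Of 199 distinct sites at WRKY genes, 29 (14.6%) were in all 8 root lists and no seed coat list, against 6.15% of 49442 sites, and 4 (2.01%) were in all 3 seed coat lists and no root list, against 6.01%. By Fisher's exact test this split has an adjusted p of 0.0499, the smallest the design allows, so each of these calls sits just inside the threshold. The 29 root sites belonged to 23 genes, and 22 of them lay upstream of the gene, 2 in a 5′ UTR, 2 in an intron, 2 downstream and 1 in a 3′ UTR. An upstream position was as common among WRKY sites present in all 11 lists (34 of 45). No called site had a peak of the other organ within 100 bp, although at WRKY4 and WRKY23 one lay 110 bp away. Sites present in all 11 lists were as common at WRKY genes (22.6%) as over all sites (21.6%).

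Of the 21 genes with a lower percentile, 16 had a root site and 5 (WRKY17, WRKY28, WRKY31, WRKY33 and WRKY40) had none. The same share over all lower genes was not computed. WRKY14 had 3, the tallest 163 bp upstream at 71.7, 95.0 and 97.7 in root (lowest, median and highest). WRKY35 also had 3, of which that at 1642 bp upstream reached 59.8, 87.6 and 92.9. WRKY9 had 2, at 1074 and 114 bp upstream, with medians of 66.0 and 51.1, the first of them nearer to the TSS of another gene. At WRKY36 the site 140 bp upstream was absent from seed coat (80.9, 91.7 and 96.2 in root). At WRKY53 the site 1313 bp upstream had 69.9, 93.7 and 96.3. At WRKY54 both distal sites, 1387 and 2047 bp upstream, were root sites, with medians of 76.3 and 95.3, while the site at 117 bp upstream was in all 11 lists. Proximal root sites also marked WRKY26 (71 bp upstream, median 92.5), WRKY70 (62 bp, 82.1), WRKY41 (173 bp, 74.3), WRKY45 (113 bp, 71.5) and WRKY30 (135 bp, 46.0). WRKY6 (119 bp inside the gene, 5′ UTR) had a median of 65.7. Root sites in introns lay at WRKY8 (1261 bp from the TSS, 79.0) and WRKY57 (1238 bp, 23.1), and that of WRKY42 lay 3773 bp from the TSS, downstream, at 48.5.

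**Figure D3:**
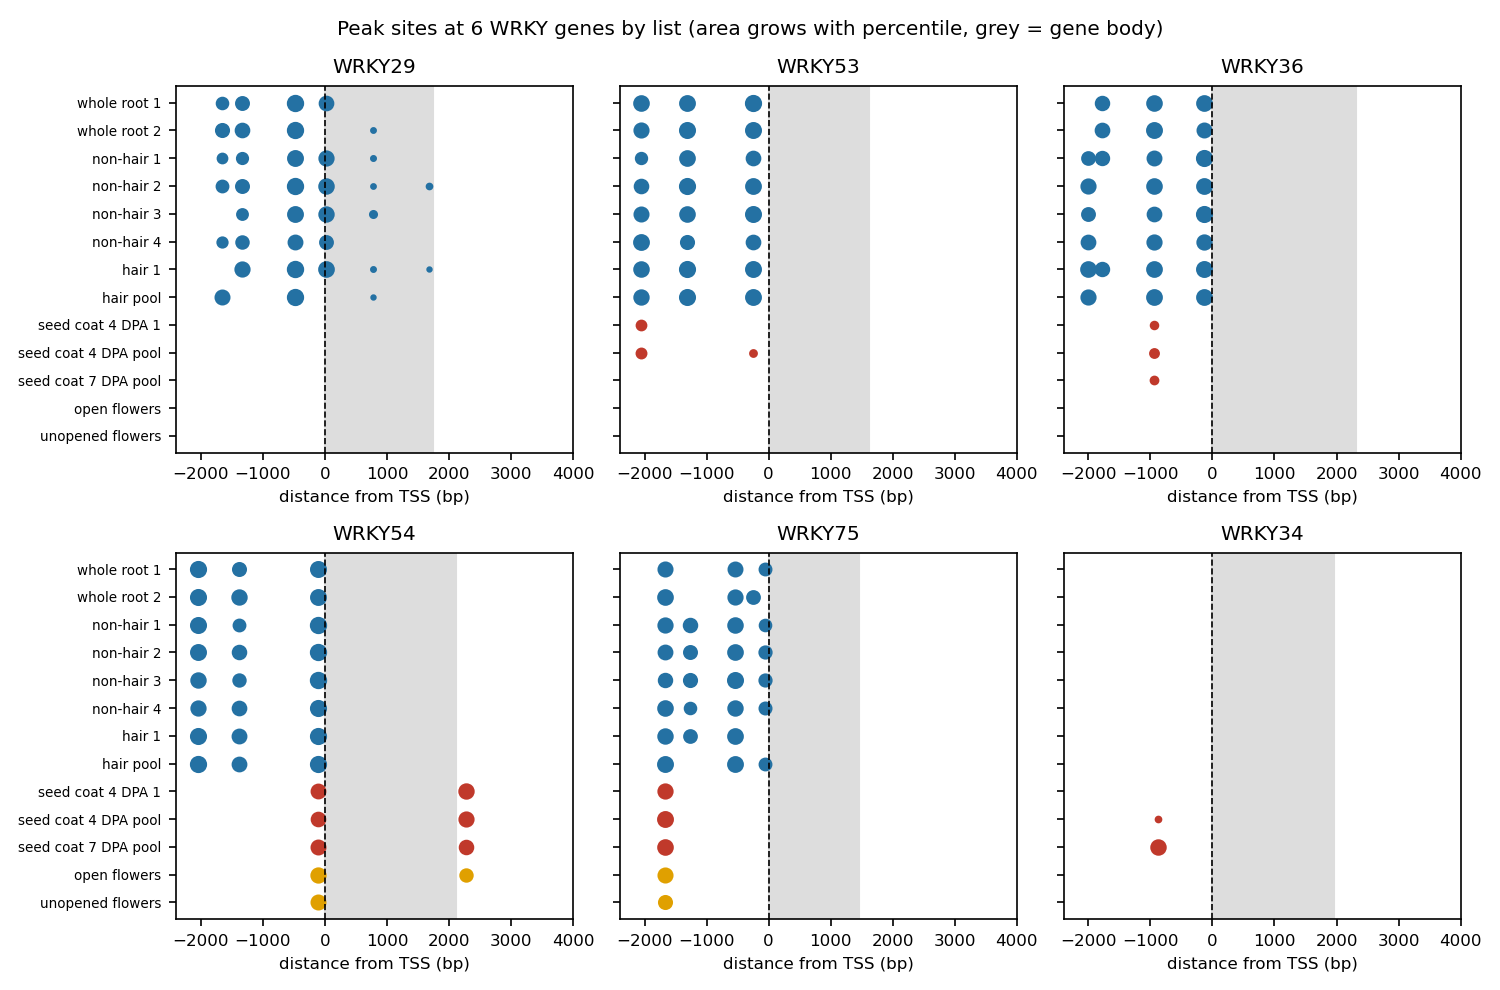
Peak sites at 6 WRKY genes by distance from the TSS (horizontal, bp) and list (vertical), with root lists in blue, seed coat in red and flowers in yellow, point area growing with percentile and the gene body in grey. WRKY29 has root peaks and no others, WRKY54 exchanges upstream root sites for a site past its 3′ end, and WRKY75 keeps its site 1664 bp upstream in every list. The 6 genes were chosen after their values were seen.

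A further 7 genes had a root site and no lower call for the gene against root. At WRKY75 the site 544 bp upstream ranked at 80.7, 89.1 and 94.8 in root and was absent from seed coat, while the gene's best percentile stayed at 84.4, 93.1 and 89.4. WRKY4 (AT1G13960, which acts in resistance to necrotrophic fungi) had a root site 928 bp upstream at 82.2, 92.0 and 95.6, WRKY2 one 1169 bp upstream with a median of 88.6, and WRKY51 one 812 bp upstream with a median of 73.7. WRKY23 (AT2G47260, an auxin response gene) had one 837 bp upstream (61.5), WRKY47 one 9 bp upstream (57.9) and WRKY27 one 86 bp inside the gene (42.4). The site at WRKY2 was nearer to the TSS of another gene. At WRKY4 and WRKY47 the gene as a whole was lower than in non-hair cells, as given above.

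The 4 seed coat sites included 1 of high rank, that past the 3′ end of WRKY54, at 86.3, 83.7 and 75.3 in the 3 seed coat lists and at 62.0 in open flowers. The others ranked low, with mean seed coat percentiles of 6.82 at WRKY12 (AT2G44745, a regulator of pith cell walls and flowering), 12.9 at WRKY45 and 12.1 at WRKY70, and the sites at WRKY45 and WRKY70 were nearer to the TSS of another gene. With equal numbers of peaks per list, a single one of the 4 was left.

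Within the root, few WRKY genes were called between the cell types, as held for all genes. By limma, 1 of 52 (WRKY47, 1.92%) was lower in hair than in non-hair cells, against 1.01% of all genes, and 0 were higher, against 0.18%. Both hair lists came from 7 day seedlings, and 3 of the 4 non-hair lists from 10 day seedlings. Age is thus partly confounded with this contrast and was not in the fit. WRKY47 ranked at 97.7, 92.1, 99.0 and 99.7 in the 4 non-hair lists, at 78.4 and 81.2 in hair and at 84.1 and 80.5 in whole root, so hair and non-hair did not overlap (difference -17.3, SE 2.81, limma adjusted p = 0.0429). Its root values also divided by seedling age, at 78.4 to 92.1 in the 5 lists from 7 day and 97.7 to 99.7 in the 3 from 10 day seedlings. Its lowest non-hair value, 92.1, was that of the 7 day list. Its call held without non-hair replicate 2 and was lost on leaving out any other single list, with limma adjusted p-values of 0.0191 to 0.247. Other negative differences, those of WRKY23 and WRKY25 larger in size, were not called: WRKY23 (-27.9, SE 6.26, limma adjusted p = 0.0774), WRKY25 (-23.8, SE 10.4, limma adjusted p = 0.275) and WRKY48 (-16.0, SE 7.55, limma adjusted p = 0.313). WRKY23 had 75.3, 78.8, 88.5 and 97.1 in non-hair and 61.4 and 52.6 in hair. By seedling age its root values were 52.6 to 78.8 in the 7 day lists and 75.3 to 97.1 in the 10 day lists.

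WRKY25 (AT2G30250, a heat and salt response gene) likewise divided the root lists by seedling age. The 5 lists from 7 day seedlings had 62.2 and 54.6 (whole root), 58.3 (non-hair replicate 2), 57.8 and 64.3 (hair), whereas the 3 lists from 10 day seedlings, all non-hair, had 94.0, 92.3 and 94.9. No test of age was made, and the gene was picked out after its values were seen. The largest positive differences of hair against non-hair were WRKY9 (18.9, SE 5.80, limma adjusted p = 0.141), WRKY35 (18.8, SE 7.01, limma adjusted p = 0.207), WRKY41 (9.67, SE 8.98, limma adjusted p = 0.644) and WRKY18 (9.21, SE 5.36, limma adjusted p = 0.420). WRKY9 had 79.5 and 89.6 in hair, above all of its non-hair values of 69.4, 75.8, 62.5 and 54.9. WRKY35 had 92.9 and 91.6 in hair and 70.9, 89.1, 74.0 and 59.8 in non-hair, so it too did not overlap.

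Whole root, which holds all cell types, was lower than the mean of hair and non-hair at 2 WRKY genes (3.85%, against 1.69% of all genes) and higher at 0 (against 1.14%). WRKY26 had 70.7 and 64.1 in whole root, 97.7, 94.8, 93.7 and 93.4 in non-hair and 86.2 and 91.6 in hair (difference -24.5, SE 4.00, limma adjusted p = 0.0293). WRKY1 had 76.7 and 83.9 in whole root, 95.2, 97.0, 97.6 and 97.0 in non-hair and 90.1 and 92.5 in hair (difference -13.7, SE 2.41, limma adjusted p = 0.0355). Whole root was below every epidermal list at both. Both calls were lost on leaving out either hair list, either whole root list or non-hair replicate 3, and that of WRKY1 also without non-hair replicate 2. WRKY30 (-25.2, SE 5.95, limma adjusted p = 0.0761), WRKY32 (-17.8, SE 5.91, limma adjusted p = 0.172) and WRKY9 (-15.7, SE 5.56, limma adjusted p = 0.197) were not called. On the positive side WRKY21 (16.4, SE 12.4), WRKY46 (16.2, SE 6.93), WRKY23 (6.36, SE 5.99) and WRKY15 (5.86, SE 2.92) were not called either, with limma adjusted p-values of 0.592, 0.282, 0.685 and 0.358.

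**Figure D4:**
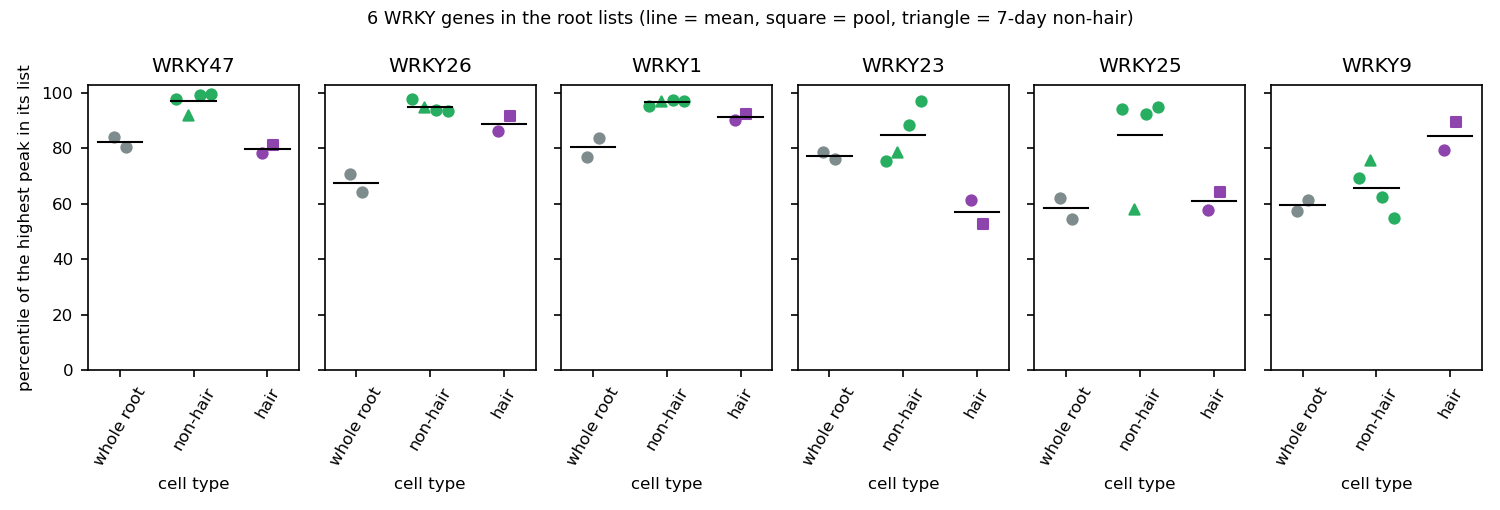
Percentile of the highest peak in the 8 root lists at 6 WRKY genes, with 1 point per list (square for the hair pool, triangle for the 7 day non-hair list) and a line at the mean of each cell type. WRKY47 is lower in hair (78.4 and 81.2) than in non-hair, WRKY26 and WRKY1 are lowest in whole root, and at WRKY25 the 7 day non-hair list (58.3) sits with hair and whole root. WRKY23, WRKY25 and WRKY9 were added after their values were seen.

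No test was made between 4 and 7 DPA, where 7 DPA has a single list, and the values are given side by side. Of 44 WRKY genes with a seed coat peak, 1 (WRKY53) had peaks in both lists of 4 DPA and none at 7 DPA, against 5.61% of genes, and 0 had a peak at 7 DPA alone, against 2.63%. Its values were 35.2, 12.8 and 0. WRKY34 came closest to the reverse, at 0 and 6.45 at 4 DPA and 87.4 at 7 DPA, and WRKY70 had 65.3 and 58.7 at 4 DPA and 1.54 at 7 DPA. The highest values at 7 DPA were those of WRKY2 (97.8), WRKY1 (97.3) and WRKY32 (96.8).

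The depth of the flower lists is unknown, so their percentiles are set side by side only. Open flowers had a peak at 35 of the 53 WRKY genes (66.0%, against 39.1% of genes) and unopened flowers at 31 (58.5%, against 42.1%). No flower peak was found at 18 (34.0%, against 52.6%). Of 35 WRKY genes with a flower peak, 4 (11.4%) had it in open flowers only, close to the 11.1% of genes. In unopened flowers only it was 0, against 17.4%. The 4 genes were WRKY8 (52.6), WRKY57 (49.9), WRKY60 (47.1) and WRKY41 (44.1). The highest values were WRKY1 (98.4), WRKY3 (AT2G03340, 96.0) and WRKY2 (93.2) in open flowers, and WRKY13 (99.0), WRKY1 (97.5) and WRKY7 (AT4G24240, 95.8) in unopened flowers. Of the 21 genes lower in seed coat, 9 had no peak in either flower list, against 52.6% of all genes. The share over all genes lower in seed coat was not computed. Of the 29 root sites, 26 had no flower peak, and over all root sites of all genes this share was 95.9%.

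W-boxes were counted as TTGACC or TTGACT on either strand. In the promoter from 250 bp before to 50 bp after the TSS, 20 of 53 WRKY genes (37.7%) had at least 1, against 32.4% of all genes, and 11 (20.8%) had at least 2, against 7.7%. In the central 150 bp of sites present in all 11 lists, 23 of 45 WRKY sites (51.1%) had a W-box, against 23.6% of all such sites. Among root sites the shares were 12 of 29 (41.4%) and 42.5% and among seed coat sites 0 of 4 and 12.4%. The root sites of WRKY30, WRKY41 and WRKY51 printed above hold 3, 2 and 2 W-boxes over their whole length. At least 2 were held by 4 of the 29 WRKY root sites (13.8%) and by 20.4% of all root sites. A match in these letters is a description of the sequence and does not show that a WRKY protein bound it.

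Genes around the family, 13 coding for partners and upstream signalling and 19 known as targets, were counted beside it. Of these 32, 10 were lower in seed coat and 1 higher, with a median difference of -7.40, against 13.2% lower, 19.3% higher and a median of 6.002 over all genes. By role, 2 of the 13 partner and signalling genes were lower and 1 higher (median difference -4.13), a lower share near that of all genes. Of the 19 targets, 8 were lower and 0 higher (median difference -9.19). Among signalling genes, MPK3 (a MAP kinase of immunity) was at 76.0, 59.5 and 70.8 in seed coat against a root mean of 90.6 ± 8.24 (SD, n = 8), and SHB1 (a regulator of seed size) at 38.1, 26.2 and 14.8 against 95.3 ± 2.66. MKK4, a kinase above MPK3, was the higher gene, at 67.8, 67.7 and 70.8 against 51.4 ± 9.17. Lower targets were the phosphate transporter gene PHT1;1 (0 in all 3 seed coat lists against 98.0 ± 3.55 in root), the flagellin response gene FRK1 (0 against 81.9 ± 5.49) and the salicylate receptor gene NPR1 (20.5, 3.73 and 29.7 against 77.8 ± 8.97). The camalexin genes PAD3 (3.92, 0 and 10.3 against 52.6 ± 10.4) and CYP71A13 (0 against 33.3 ± 12.6) were lower as well. PAD4, CBP60G and CKX2 were the others. Each of these calls had an exact adjusted p of 0.0219, or of 0.0373 for MPK3, MKK4 and CKX2. The receptor gene FLS2 (difference -4.13, exact adjusted p = 0.327) and the salicylate synthesis gene ICS1 (-1.65, exact adjusted p = 0.889) were not called.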

How the data were processed

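The authors deposited 22 peak lists, of which 13 were used: 11 with the mark 6.8M, taken to be a read number common to the lists (no label spells it out), and 2 flower lists of unknown depth. Each peak carries a score made by the authors, of unstated scale; caller and threshold were not given in the sources used here. Bowtie 0.12.7 and TAIR10 are named in the submitters' processing notes, with no role. Replicates 1 and 2 of seed coat at 4 DPA are a single library and were counted once. Without read counts in the lists, a single peak has no counting error, and p-values measure the spread between lists. The tests treat each list as a separate unit. Whether the hair or 4 DPA pool shares a library with replicate 1 of its group was not checked.

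Scores were turned into percentiles within each list (ties averaged), and each gene took its highest peak in the window, from 2000 bp upstream of the TSS to 500 bp past the 3′ end (RefSeq TAIR10.1, with the same nuclear chromosome lengths). Seed coat against root was tested by exact permutation (two-sided), the other comparisons with limma 3.58.1 in R 4.3.3 on the percentiles of 5 groups, with Benjamini-Hochberg adjustment over 23848 genes and a threshold of 0.05. Sites are peaks of the 11 lists merged at a gap of 0 bp, tested with Fisher's exact test. The code was tested on simulated data. WRKY groups and roles come from textbook knowledge. Values were given by rule for called members and sites, for the 4 largest differences where fewer than 4 passed, for the 4 highest and lowest means, and for members in 1 stage or flower list only. The members and lists were chosen with earlier results of these data known. Alternatives changed the number of peaks, window, assignment, mark, pools, lists, overlap and test.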

Additional observations from a re-analysis of the deposited data

Results flagged for a closer look

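Of 51 WRKY genes with values in the 4 non-hair lists, 6 had a list far from the other 3, a share of 11.8% against 13.1% of the 21602 genes with unequal values there. WRKY16 and WRKY50 count among the 6 through a single peak, which always meets the measure, and at WRKY11 the gap is under 1 percentile point. In normal data chance flags about 1 in 20 groups. Non-hair replicate 4 stood apart at WRKY14 (71.7, against 93.7 to 95.5), WRKY17 (95.1, against 98.1 to 98.6) and WRKY11 (97.9, against 97.1 to 97.2). Non-hair replicate 1 had the only peak at WRKY16 (8.77, against 0) and WRKY50 (31.1, against 0). At WRKY25 the list apart was replicate 2, the one from 7 day seedlings (58.3, against 92.3 to 94.9), and its value lay among those of hair and whole root at the same age.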

How the results depend on the processing

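No paired analysis was possible because the labels number no replicates across groups. Exact tests need all 3 seed coat lists: without pools the 21 lower and 1 higher calls against root became 0 and 0 (smallest p 0.125), and leaving out lists gave 0 to 23 lower and 0 to 3 higher. By limma there were 24 lower and 2 higher, 18 and 0 without pools, and 21 to 24 and 1 to 4 with a list left out (these runs without lists or pools were added after seeing the data). The higher count was also 2 with the narrow window, 0 with the nearest TSS and 3 among genes with a peak in at least 3 lists.

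Against non-hair, an exact test gave 0 lower and 0 higher (smallest p 0.0286). The 27 lower ranged from 21 to 29 and the 2 higher from 1 to 3 with a list left out, and the higher were 1 with the nearest TSS, 0 without pools and 1 among genes in at least 3 lists. Hair against non-hair gave 0 lower by exact test, with equal peaks, without pools and in at least 3 lists, 2 lower and 1 higher with the stricter number of peaks, and 0 to 2 lower and 0 to 1 higher with a list left out. Whole root gave 0 lower by exact test, 4 with the stricter number of peaks, 1 without pools, 1 in at least 3 lists and 0 to 4 with a list left out. Root sites numbered 29 to 33 and seed coat sites 4 to 6 with a list left out, and 36 and 7 without pools. These runs with fewer lists counted presence alone, without the adjusted p. Leaving lists out loosens the presence rule, so these counts do not test the calls. Seed coat sites numbered 1 with equal peaks and 1 with the narrow window. In all, 2 differences against non-hair changed sign: WRKY20 was 37.8 with the narrow window and WRKY11 was 0.792 without pools. The causes were not tested, except that exact tests of fewer lists cannot reach small p-values.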
